A study of Mus musculus with 30 samples.

Results

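The effect of adding KCL-HO-1i to 5-fluorouracil (5-FU) on mammary tumours was read from bulk RNA sequencing of whole tumours. The comparison set the 5 libraries labelled KCL-HO-1i/5-FU against the 5 labelled 5-FU, 10 of the 30 libraries of the series, and the members were taken from the sample titles alone. Every mouse was FVB/N-Tg(MMTV-PyVT)634Mul/J and was labelled genotype WT. In this strain the mouse mammary tumour virus promoter drives the polyoma middle T antigen in mammary epithelium, and tumours arise spontaneously. Mice of both groups received 5-FU by intraperitoneal injection at 40 mg/kg every 4 days, and those of the combination group also received KCL-HO-1i at 25 µmol/kg daily. The labels give 72 hours of treatment and the text of the study a shorter time. The age and sex of the mice were not used here. For context, KCL-HO-1i was also set against vehicle and KCL-HO-1i/gemcitabine against gemcitabine, 5 libraries a group. The labels give gemcitabine at 64 mg/kg every 7 days, and the text of the study a lower dose. Each library came from its own mouse.

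Heme oxygenase-1 (HO-1), the product of Hmox1, opens the heme ring and releases carbon monoxide, biliverdin and iron. Hmox2 encodes the constitutive form of the enzyme. Heme and oxidants induce Hmox1 and a set of iron and antioxidant genes through release of the repressor BACH1 and stabilisation of the activator NRF2. In tumours of this strain HO-1 is known from macrophages, many of them lying along blood vessels. KCL-HO-1i is described by the study as a phosphate salt of tin mesoporphyrin, a porphyrin that occupies the enzyme in place of heme. 5-FU blocks thymidylate synthase and its products enter RNA and DNA, so replication, DNA repair and p53 target genes were read beside the heme genes.

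The 10 libraries held between 11547525 and 13416374 counts, 12.2 ± 0.655 M in 5-FU and 12.6 ± 0.977 M in KCL-HO-1i/5-FU (SD, n = 5). Mitochondrial transcripts took 1.82% to 3.47% of counts. Markers of luminal epithelium, the labelled breast tissue, were present throughout, with a summed level between 4710 and 6710 CPM (read counts scaled to the TMM-adjusted library size) in 5-FU and between 3330 and 7020 CPM in KCL-HO-1i/5-FU. Each label holds a code, whose meaning is not stated, and a sub-code that differs between the libraries of a code. Libraries that share a code are therefore not labelled as the same mouse. The codes were 76 for 5-FU replicates 1 to 3, 69 for replicate 4 and 74 for replicate 5. In the combination they were 65 for replicates 1 and 5, 74 for replicates 2 and 4 and 70 for replicate 3, so code 74 alone occurred in both groups and the other codes cannot be told apart from the treatment.

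Some libraries stood apart from the rest of their group. A list score, the median deviation of the genes of a list from their mean log2 CPM over the 10 libraries, was used to show this. In 5-FU replicate 4 the scores were -1.24 for fibroblast and matrix genes, -1.74 for matrix proteases and -1.09 for macrophage genes. In KCL-HO-1i/5-FU replicate 3 the same scores were 2.09, 2.05 and 1.01, while luminal epithelium scored -0.60. These libraries were the lowest of the 5-FU group and the highest of the combination group for all 3 lists, so both move the comparison in the same direction. KCL-HO-1i/5-FU replicate 5 was the lowest of all 10 for the fibroblast list, at -2.18. In 5-FU replicate 5 the mitosis score was -1.14 against 0.60 to 0.87 in the other 5-FU libraries. In bulk tissue, fewer cells of a type and less RNA per cell cannot be told apart. The list counts are therefore also given without 5-FU replicate 4 and KCL-HO-1i/5-FU replicate 3, an alternative chosen after the data were seen. Since these libraries were the extremes of the 3 lists, leaving them out brings the groups together for such lists by the choice itself. It shows how far the values rest on them and is no independent check. KCL-HO-1i/5-FU replicate 5, low for the fibroblast list, was kept.

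**Figure D1:**
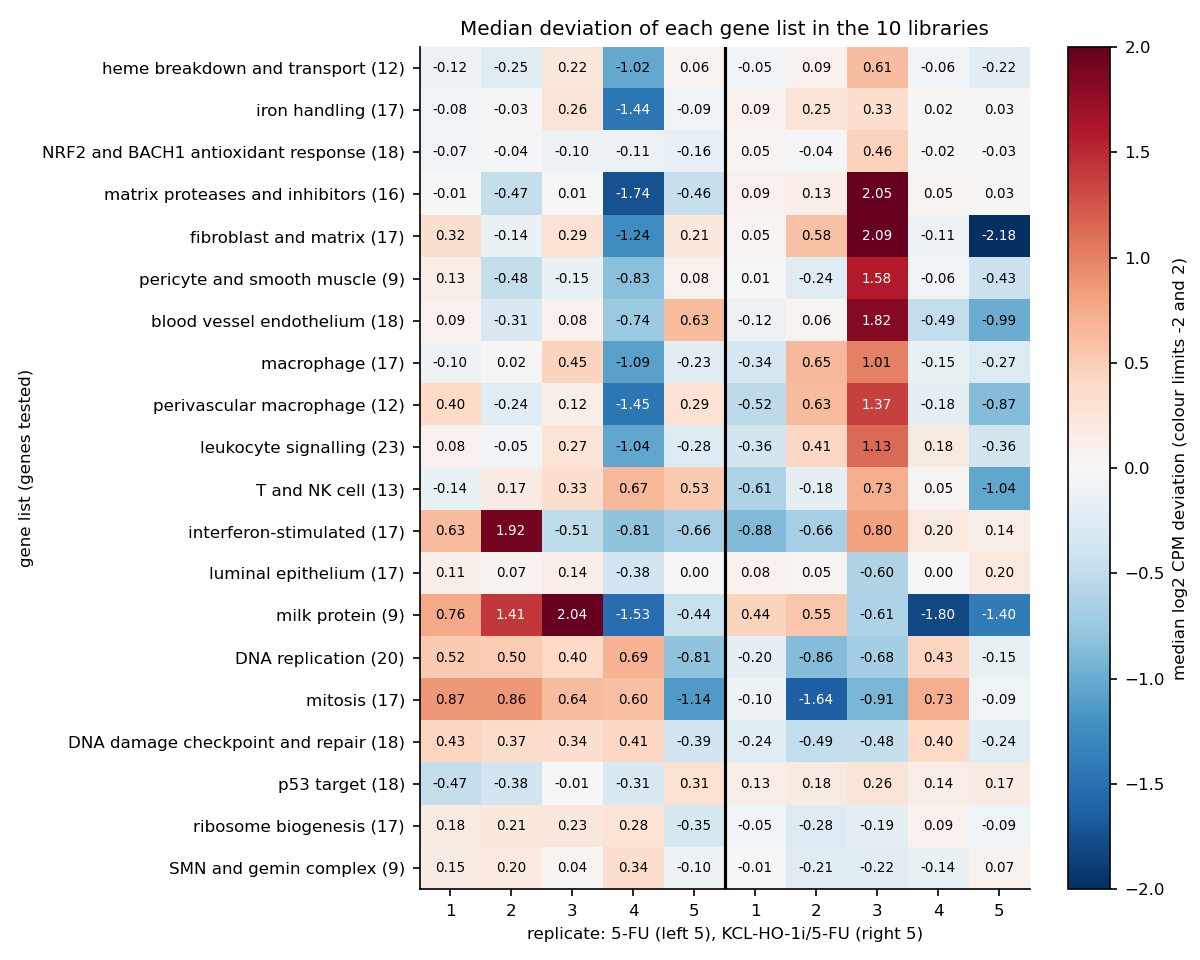
Heat map of list scores for 20 gene lists (rows, with the genes tested in parentheses) in the 5 libraries of 5-FU (left) and the 5 of KCL-HO-1i/5-FU (right). Colour and printed value are the median log2 CPM deviation from the mean of the 10 libraries. Replicate 4 of 5-FU is low and replicate 3 of KCL-HO-1i/5-FU is high for the stromal, vascular and macrophage lists, and replicate 5 of 5-FU is low for the replication and mitosis lists.

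Of 13663 genes tested, 0 (0%) passed an adjusted p of 0.05 in edgeR, and the smallest adjusted p was 0.1793. At an unadjusted p under 0.05, 845 genes (6.18%) were higher with KCL-HO-1i and 719 (5.26%) were lower. The 5 libraries of the groups did not overlap in CPM for 128 higher genes (0.937%) and 86 lower ones (0.629%). DESeq2 called 44 genes at an adjusted p of 0.05, 25 higher and 19 lower, and limma-voom 0. Of the 44, 16 are named below, most of them chosen for a small p in these same data. Among them were Hmox1 (DESeq2 adjusted p = 0.000348), Zdhhc8 (0.000471), Nab2 and Mmp13 (both 0.00232), Slc40a1 (0.0172) and, on the lower side, Arg1 (0.0269). The smallest DESeq2 p-values belonged to Csrp3 and Myo18b, muscle genes with a mean of 0.447 and 0.434 CPM in 5-FU and 0 in every combination library, for which edgeR gave adjusted p-values of 0.4669 and 0.495. Without 5-FU replicate 4 and KCL-HO-1i/5-FU replicate 3 the unadjusted counts were 372 higher (2.7%) and 229 lower (1.66%), and 0 genes passed the adjusted threshold. List counts without these libraries are to be read beside those smaller shares. Of the 844 higher genes tested in both fits 283 stayed under the unadjusted threshold in that fit, and 181 of 718 lower genes did. Without 5-FU replicate 5 alone 1184 genes were lower, without 5-FU replicate 4 alone 338 were, and without replicate 3 of the combination 561 were higher. Accordingly "higher" and "lower" below describe levels, and the members of lists are counted at the unadjusted p beside these background shares. The median log2 fold change over all genes tested was 0.02.

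Hmox1, the gene of the inhibited enzyme, was higher in the combination. It was at 33.9, 35.2, 63.9, 12.1 and 48.9 CPM in 5-FU replicates 1 to 5 and at 189, 63.6, 1200, 222 and 107 CPM in KCL-HO-1i/5-FU replicates 1 to 5. All combination libraries but replicate 2 exceeded every 5-FU library, and replicate 2 lay just under 5-FU replicate 3. The means were 38.8 ± 19.2 and 356 ± 475 CPM (SD, n = 5), and the log2 fold change was 3.20 ± 0.68 (SE) with an adjusted p of 0.2002 in edgeR. An exact two-sided permutation test of log2 CPM gave p = 0.0159, where 0.00794 is the smallest p the design allows. Leaving out replicate 3 of the combination gave a log2 fold change of 1.9, and leaving out 5-FU replicate 4 as well gave 1.68. Within code 74, 5-FU replicate 5 had 48.9 CPM and combination replicates 2 and 4 had 63.6 and 222 CPM. DESeq2 gave an adjusted p of 0.000348. Hmox1 spans chromosome 8, 75093618 to 75100593 (GRCm38.p6, the assembly of mm10). Hmox2 lay between 66.3 and 88.2 CPM in 5-FU and between 57.7 and 79.4 CPM in the combination, with a log2 fold change of -0.03 ± 0.11.

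Among 12 tested genes of heme breakdown and transport, 4 were higher at the unadjusted p (Hmox1, Slc48a1, Spic and Lrp1) and 0 lower, with a median log2 fold change of 0.41. Without the libraries that stood apart 1 was higher and the median was -0.04. Slc48a1, which carries heme out of endolysosomes, was at 62.5 to 115 CPM in 5-FU (median 83.7) and at 101, 104, 266, 93.7 and 81.7 CPM with KCL-HO-1i. The groups overlapped and replicate 3 of the combination alone was far above the rest. Spic, a transcription factor of red pulp macrophages that is induced by heme, stood at 0.335, 0.162, 0.82, 0.0815 and 0.445 CPM in 5-FU and at 1.28, 1.04, 5.55, 1.48 and 0.313 CPM in the combination. It was low everywhere, near the level of a few reads, and 4 of 5 combination libraries exceeded every 5-FU library.

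Iron genes held 5 higher members of 17 (Slc40a1, Slc39a14, Fth1, Slc11a1 and Steap4) and 1 lower (Tfrc), median 0.33. Without the libraries that stood apart the counts were 1 and 1 and the median 0.07. Slc40a1, the only known cellular iron exporter, was at 19.5, 11.2, 26.8, 23.7 and 26.2 CPM in 5-FU and at 34.9, 40.7, 250, 45.9 and 24.3 CPM in the combination. Combination replicates 1 to 4 exceeded every 5-FU library and replicate 5 lay inside the 5-FU range. The log2 fold change was 1.88 ± 0.45 (SE, adjusted p = 0.2175 in edgeR), and 0.76 without KCL-HO-1i/5-FU replicate 3. Slc40a1 lies on chromosome 1, 45908070 to 45926532.

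Fth1, the heavy chain of ferritin, was at 1720, 2080, 2390, 734 and 1880 CPM in 5-FU and at 2670, 2540, 7980, 1280 and 2230 CPM in the combination. Its log2 fold change of 0.92 became 0.11 when 5-FU replicate 4 and KCL-HO-1i/5-FU replicate 3 were left out. Tfrc, the receptor that takes up transferrin iron, was at 162, 157, 96.6, 93.3 and 63.7 CPM in 5-FU and at 79.2, 52.9, 34.6, 73.9 and 73.6 CPM with KCL-HO-1i. Of the 5-FU libraries only replicate 5 fell into the range of the combination. The log2 fold change of Tfrc was -0.87 ± 0.34 (SE, adjusted p = 0.3542 in edgeR) and ranged from -1.02 to -0.71 when each library was left out in turn. Alas1, the housekeeping enzyme that begins heme synthesis and is repressed by heme, was at 19.3, 17.9, 24.4, 13.8 and 29.1 CPM in 5-FU and at 11.9, 12.4, 12.7, 10.9 and 15 CPM in the combination. Again a single 5-FU library, replicate 4, lay among the combination libraries, and the log2 fold change was -0.74 ± 0.24 (SE). Alas1 was the only one of 8 tested heme synthesis genes to pass the unadjusted p, and it did so with and without the libraries that stood apart.

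**Figure D2:**
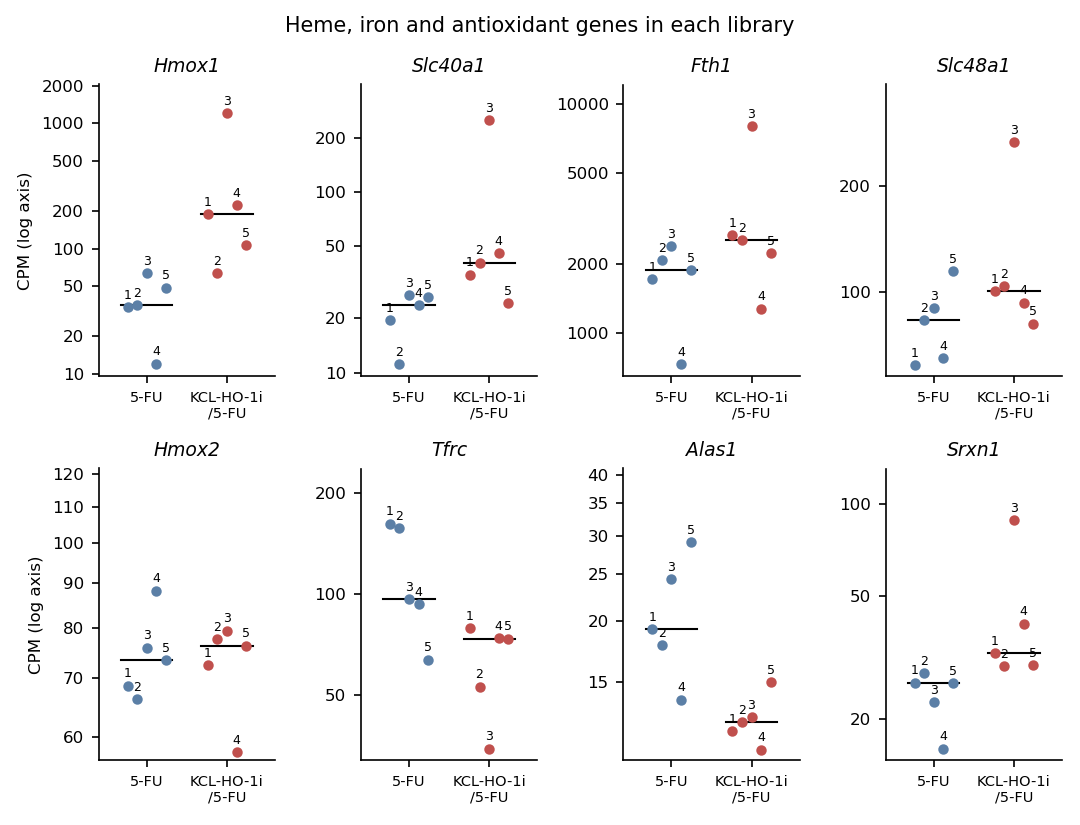
Level of 8 heme, iron and antioxidant genes in each library, in CPM on a log axis. Points are libraries with their replicate number and bars are group medians. Replicate 3 of KCL-HO-1i/5-FU is the highest library for Hmox1 (1200 CPM), Slc40a1 (250 CPM), Fth1, Slc48a1 and Srxn1, and Hmox2 shows no separation of the groups.

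NRF2 and BACH1 target genes, which supply glutathione and repair oxidised proteins, held 5 higher members of 18 (Srxn1, Slc7a11, Gclm, Gclc and Sqstm1) and 0 lower, median 0.19. Without the libraries that stood apart 0 passed in either direction. Srxn1, sulfiredoxin, was at 26.2, 28.1, 22.6, 16 and 26.1 CPM in 5-FU and at 32.7, 29.7, 88.7, 40.8 and 29.9 CPM in the combination. Slc7a11, the cystine importer, was at 1.84, 2.03, 2.05, 1.22 and 1.93 CPM in 5-FU and at 2.26, 2.15, 17, 4.53 and 2.51 CPM in the combination. For both genes the groups did not overlap, but replicates 2 and 5 of the combination, and for Slc7a11 also replicate 1, lay close above the 5-FU libraries. Gclm and Gclc, the subunits of the enzyme that begins glutathione synthesis, had log2 fold changes of 0.44 and 0.53, and of 0.22 and 0.10 without KCL-HO-1i/5-FU replicate 3. Nfe2l2 (0.01), Keap1 (0.05), Nqo1 (0.85) and Txnrd1 (0.10) did not pass the unadjusted p.

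The antioxidant response element, where NRF2 and BACH1 bind, has the core TGACNNNGC. It was found on either strand in the promoter windows (250 bases before to 50 after the start, RefSeq GRCm38.p6) of 7 of 16 tested genes of this list that have a window, 43.8%, against 17% of 10701 tested genes. The match in Gclm is shown as the example, with the core in capitals on the opposite strand, since this gene is a textbook target of the element. It covers chr3:122245397-122245457 on the plus strand.
Gclm: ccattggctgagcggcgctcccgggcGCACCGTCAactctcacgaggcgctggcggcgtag
A match of letters describes the window and is no measurement of binding.

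Matrix proteases and their inhibitors, which cut or protect the collagen scaffold around tumour nests, made up the list with most higher members. Of 16 tested, 8 were higher (Mmp13, Mmp11, Timp3, Mmp3, Mmp2, Timp2, Mmp14 and Mmp10) and 0 lower, median 1.08. Without the libraries that stood apart 1 was higher and the median was 0.15. Mmp13, a collagenase, was at 6.61, 4.71, 9.67, 0.815 and 4.37 CPM in 5-FU and at 26.5, 12.3, 191, 22.1 and 16.4 CPM in the combination. The groups did not overlap, and the lowest combination library exceeded the highest 5-FU library. The log2 fold change was 3.36 ± 0.78 (SE, adjusted p = 0.2175 in edgeR), and 1.61 without the libraries that stood apart. Mmp3, stromelysin, was at 4.6, 9.33, 5.25, 2.12 and 4.08 CPM in 5-FU and at 8.29, 30, 122, 7.65 and 0.783 CPM in the combination, where the lowest of all 10 libraries was combination replicate 5.

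Fibroblast and matrix genes held 4 higher members of 17 (Fap, Col5a2, Postn and Pdgfra) and 0 lower, median 0.72, and all 17 had a positive log2 fold change, as did 53.3% of all genes tested. Fap, a surface protease of activated fibroblasts, was at 3.35, 2.19, 3.61, 1.3 and 4.52 CPM in 5-FU and at 2.64, 4.08, 72, 3.04 and 1.02 CPM in the combination. Only replicate 3 of the combination lay above the 5-FU range. Without that library and 5-FU replicate 4 the log2 fold change of Fap was -0.34, 0 of the fibroblast genes passed and the list median was -0.17. Of 9 pericyte genes Mcam and Pdgfrb were higher, and of 18 blood vessel genes Vcam1 was, and 0 of either list passed once those libraries were left out. The summed level of the fibroblast list ran from 847 to 2180 CPM in 5-FU and from 441 to 10000 CPM in the combination, and its part in the other differences was not tested.

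Lyve1 and Mrc1, which mark the macrophages that the study is about, both overlapped between the groups. Lyve1 was at 5.1, 2.11, 1.39, 0 and 4.59 CPM in 5-FU and at 0.754, 1.04, 0.617, 1.98 and 0 CPM in the combination, a log2 fold change of -1.58 ± 1.25 (SE). Lyve1 also marks lymphatic vessels, and of 6 tested genes of the lymphatic list 4 had a negative and 2 a positive log2 fold change. Mmrn1 and Ccl21a had -1.59 and -1.70, and Pdpn had 1.22 (-0.11 without KCL-HO-1i/5-FU replicate 3). The part of lymphatic vessels in the Lyve1 values was not tested. Mrc1 was at 19.9, 9.74, 11.7, 4.64 and 9.41 CPM in 5-FU and at 7.61, 19.9, 72.4, 14.9 and 2.11 CPM in the combination. Its log2 fold change of 1.08 (SE 0.86) turned to -0.18 without the libraries that stood apart. Of 17 macrophage genes 0 passed the unadjusted p in either direction, all 17 with a positive log2 fold change and a median of 0.37, which was 0.0049 without those libraries. Gas6, a ligand of the TAM receptors, was higher among 12 perivascular macrophage genes, 8 of them positive, with a median of 0.57. Hcls1, a cytoskeletal adaptor of blood cells, was higher among 23 leukocyte signalling genes. Without those libraries 0 of either list passed, with medians of -0.22 and 0.02.

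Hcls1 was at 18.7, 21.8, 22.7, 7.82 and 19.8 CPM in 5-FU and at 25.8, 31.4, 52.3, 37.9 and 26 CPM in the combination, so every combination library was above every 5-FU library. Csf1r, the receptor for the main macrophage growth factor, overlapped between the groups, with a median of 56.5 CPM in 5-FU and 79.3 CPM in the combination and a log2 fold change of 0.65 ± 0.38 (SE). Arg1, an arginase of suppressive myeloid cells, went the other way, at 121, 70.4, 68, 1330 and 160 CPM in 5-FU and at 40.9, 32, 62.9, 46.1 and 24 CPM in the combination. The groups did not overlap for Arg1. Its log2 fold change was -3.09 ± 0.82 (SE, adjusted p = 0.2615 in edgeR) and -1.35 without 5-FU replicate 4. That library, with 1330 CPM of Arg1, was the lowest of the 5-FU group for Csf1r (25.8 CPM) and for the macrophage score (-1.09). Which cells carried Arg1 was not tested.

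Cytotoxic T cell genes were at low counts in all 10 libraries. Cd8a, the co-receptor of CD8+ T cells, was at 0.502, 1.54, 2.46, 1.14 and 3.48 CPM in 5-FU and at 0.754, 0.964, 1.76, 1.4 and 1.25 CPM in the combination, with a log2 fold change of -0.57 ± 0.63 (SE). Gzmb, granzyme B, was at 1.17, 4.46, 6.31, 13.6 and 10 CPM in 5-FU and at 2.79, 2.37, 5.46, 4.77 and 3.29 CPM in the combination, a log2 fold change of -0.93 ± 0.54 (SE). Both overlapped between the groups. The log2 fold change was -0.21 for Cd8a without 5-FU replicate 5 and -0.56 for Gzmb without 5-FU replicate 4. Gzma, granzyme A, was the only member of 13 T and NK cell genes past the unadjusted p, on the lower side, at 0.0836, 1.14, 3.11, 1.47 and 2.07 CPM in 5-FU and 0.0754, 0, 0.793, 0.165 and 0.157 CPM in the combination. The list median was -0.41, and without the libraries that stood apart 1 of 12 tested was lower and the median was -0.62. Ifng had 3 reads over the 5-FU group and 1 over the combination and, like Cd8b1 (18 and 13 reads), was not tested.

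Chemokine ligands held 3 higher members of 24 (Cx3cl1, Cxcl5 and Cxcl1) and 1 lower (Ccl28), median 0.15, and 0 passed without the libraries that stood apart. Cx3cl1, which draws monocytes and lymphocytes that carry CX3CR1, was at 93.1, 85.7, 90.1, 50.9 and 72.8 CPM in 5-FU and at 108, 135, 264, 104 and 120 CPM in the combination, with no overlap. Cxcl12 (log2 fold change 0.80), Cxcl14 (0.59) and Ccl21a (-1.70) had adjusted p-values of 0.6739, 0.726 and 0.6975 in edgeR, and Ccl21a has near-identical copies among which reads may be split. Without KCL-HO-1i/5-FU replicate 3 the log2 fold changes were -0.09, 0.31 and -3.13, and that of Ccl21a was -0.88 without 5-FU replicate 5. Interferon-stimulated genes had a median of -0.45, with Oas2 lower of 17, and 1 lower with a median of -0.86 without the libraries that stood apart. Oas2 stood at 19.7, 104, 2.13, 0.57 and 1.7 CPM in 5-FU and between 1.88 and 8.81 CPM in the combination, so 5-FU replicates 1 and 2 alone were above the combination. Its log2 fold change was -2.28 ± 1.08 (SE), and -0.18 without 5-FU replicate 2.

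Of 20 replication genes tested, 0 were higher at the unadjusted p and 11 lower (Mcm2 to Mcm7, Rrm1, Rrm2, Prim1, Pcna and Cdt1), median -0.62. Without the libraries that stood apart 2 were lower and the median was -0.35, and without 5-FU replicate 5 alone 15 were lower and the median was -0.82. Over all genes tested the lower ones also rose without 5-FU replicate 5, from 719 to 1184. Mcm7, a subunit of the helicase that opens DNA at replication origins, was at 95.5, 273, 108, 127 and 59.9 CPM in 5-FU and at 59.5, 57.8, 54.3, 92.2 and 68 CPM in the combination. Replicate 5 was the only 5-FU library inside the range of the combination. The log2 fold change was -0.997 ± 0.26 (SE, adjusted p = 0.2453 in edgeR) and -0.55 without 5-FU replicate 2. Rrm1, the large subunit of ribonucleotide reductase, was at 143, 134, 159, 134 and 70.5 CPM in 5-FU and at 71.6, 54.4, 54, 122 and 71.4 CPM in the combination. Here combination replicate 4 lay near the 5-FU libraries and 5-FU replicate 5 among the combination. Within code 74 the direction differed between animals, with 70.5 CPM in 5-FU replicate 5 against 54.4 and 122 CPM in combination replicates 2 and 4. Once mouse code entered the fit the log2 fold changes of Mcm7 and Rrm1 were -0.12 and -0.12. That fit compares the groups directly only within code 74, whose single 5-FU library is replicate 5, so it cannot separate code from treatment.

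Promoters of the replication genes were read for the E2F motif, the element of S-phase genes. TTTCCCGC or TTTGGCGC occurred on either strand in the windows of 6 of 15 replication genes, 40%, and of 3.26% of 10701 tested genes. The matches of 3 lower helicase subunits are shown, with the motif or its reverse complement in capitals. Each lies before the start that the promoter table uses, and that of Mcm7 lies within the annotated gene, after its first annotated start. They cover chr5:138172015-138172074 (minus strand), chr1:128359719-128359778 (minus strand) and chr8:75109334-75109393 (plus strand) for Mcm7, Mcm6 and Mcm5. Mcm6 has another match, in chr1:128359782-128359841, which is not shown.
Mcm7: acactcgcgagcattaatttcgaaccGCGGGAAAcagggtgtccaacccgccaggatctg
Mcm6: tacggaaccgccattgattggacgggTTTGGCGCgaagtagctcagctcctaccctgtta
Mcm5: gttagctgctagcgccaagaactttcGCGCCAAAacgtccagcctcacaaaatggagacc
The motif was in the windows of 3 of 13 repair genes (23.1%), 2 of 9 heme breakdown genes (22.2%), 0 of 14 mitosis genes and 0 of 16 antioxidant genes, and a match says nothing of binding.

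Mitosis genes had 4 lower members of 17 (Ccnb2, Ccnb1, Tpx2 and Plk1), all 17 with a negative log2 fold change and a median of -0.70. Ccnb1, cyclin B1, was at 71, 75.9, 62.8, 58.6 and 14.1 CPM in 5-FU and at 34.6, 13.4, 19.1, 58.8 and 27.7 CPM in the combination. The groups overlapped, since 5-FU replicate 5 was lower than 4 of the combination libraries and combination replicate 4 lay level with 5-FU replicate 4. Once mouse code entered the fit the log2 fold change of Ccnb1 was 0.42, against -0.88 before. The same limit holds, since code 74 alone is in both groups and its single 5-FU library is replicate 5. DNA repair and checkpoint genes had 10 lower members of 18 and 0 higher, median -0.37, all 18 negative. Chek1, the kinase that halts the cycle when replication stalls, was at 11, 10.3, 8.85, 14.5 and 4 CPM in 5-FU and at 4, 4.23, 3.96, 9.55 and 5.64 CPM in the combination. Rpa2, a subunit of the protein that coats single-stranded DNA, had a log2 fold change of -0.70 ± 0.23 (SE). Without the libraries that stood apart 0 of the mitosis and 0 of the repair genes passed, with medians of -0.51 and -0.26. Without 5-FU replicate 5 alone 13 mitosis and 11 repair genes were lower, in a fit where the lower genes over all tested rose from 719 to 1184.

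Genes of fluoropyrimidine action and folate metabolism held 6 lower members of 19 (Shmt1, Rrm1, Dut, Shmt2, Umps and Upb1) and 0 higher, median -0.29. Leaving out the libraries that stood apart gave 2 lower and a median of -0.16. Tyms, the thymidylate synthase that 5-FU inhibits, was at 19.2, 19.1, 19.3, 33.4 and 13.4 CPM in 5-FU and at 19.1, 10.8, 14, 16.8 and 17.6 CPM in the combination, and its log2 fold change of -0.42 ± 0.24 (SE) did not pass and was -0.18 without 5-FU replicate 4. Shmt1, a serine hydroxymethyltransferase that feeds thymidylate synthesis, was at 46.1 to 60.4 CPM in 5-FU (median 56.8) and 19.1 to 56 CPM in the combination (median 35.2). Dpyd (-0.63) and Tymp (0.04), which degrade or convert the drug, had unadjusted p-values above the threshold.

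Targets of p53 were counted separately, with 3 higher members of 18 (Tnfrsf10b, Mdm2 and Sesn2) and 0 lower. All 18 had a positive log2 fold change and the median was 0.42. The count was also 3 without the libraries that stood apart, where the median was 0.22, and 7 without 5-FU replicate 5. Over all genes tested, 883 were higher without 5-FU replicate 5, against 845 with it. Mdm2, the ubiquitin ligase of p53, was at 57.9, 55.6, 54.3, 48 and 65.7 CPM in 5-FU and at 61.6 to 77.6 CPM in the combination (median 68.8). Only 5-FU replicate 5 reached into the combination, and the log2 fold change was 0.32 ± 0.11 (SE, adjusted p = 0.3096 in edgeR).

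Tnfrsf10b, a death receptor, was at 13.1, 13.9, 17.2, 15.1 and 15 CPM in 5-FU and at 26.5, 17.6, 15.3, 22.5 and 25 CPM in the combination, a log2 fold change of 0.52 ± 0.18 (SE), with combination replicate 3 alone inside the 5-FU range. Cdkn1a, the cell cycle inhibitor p21, was at 55.6, 68, 126, 48.1 and 343 CPM in 5-FU and at 256, 236, 210, 219 and 178 CPM in the combination. The combination libraries lay close together, above 5-FU replicates 1 to 4 and below replicate 5, and the log2 fold change was 0.78 ± 0.44 (SE) with all libraries and 1.55 without 5-FU replicate 5. The 5-FU library with the highest Cdkn1a was thus the one with the lowest mitosis score.

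**Figure D3:**
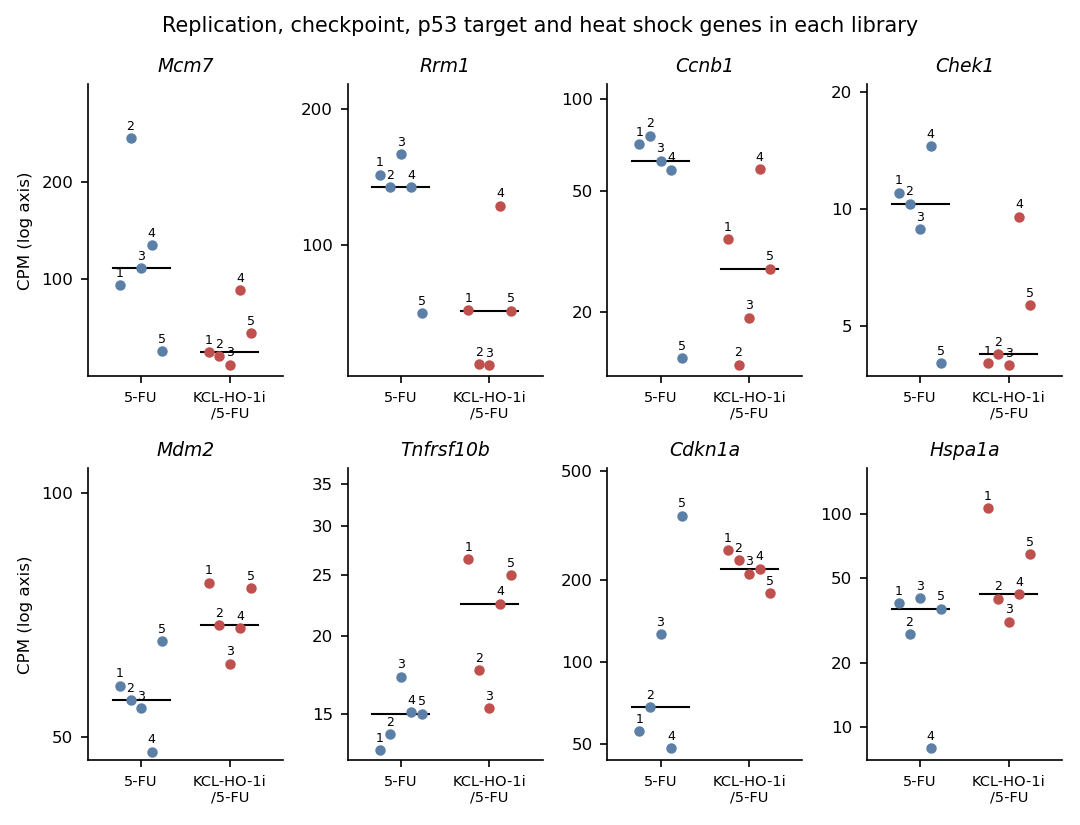
Level of 8 replication, checkpoint, p53 target and heat shock genes in each library, in CPM on a log axis, with replicate numbers and group medians as bars. Replicate 5 of 5-FU sits with the combination for Mcm7, Rrm1, Ccnb1 and Chek1 and is the highest library for Cdkn1a (343 CPM), and replicate 4 of KCL-HO-1i/5-FU sits with 5-FU for Rrm1, Ccnb1 and Chek1.

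Heat shock genes had 3 higher members of 11 (Hspa1a, Dnajb1 and Hspa1b) with and without the libraries that stood apart, and a median of -0.19. Hspa1a, the inducible HSP70, was at 38.1, 27.3, 40.2, 7.98 and 35.9 CPM in 5-FU and at 106, 40, 31.2, 42.1 and 64.8 CPM in the combination, and its near-identical copy Hspa1b may share its reads. Dnajb1, its co-chaperone, was at 49 to 55.6 CPM in 5-FU (median 52) and at 102, 60.7, 56.2, 48.6 and 87.7 CPM in the combination. Replicates 1 and 5 of the combination, which share code 65, carried most of this difference. Asns, asparagine synthetase, was lower without overlap, at 65, 94, 53.7, 48.8 and 46.5 CPM in 5-FU and 36.3, 35, 17.5, 44.7 and 37 CPM in the combination. Phgdh was the other lower gene among 17 of the integrated stress response, where 0 were higher and the median was 0.06. Leaving out the libraries that stood apart gave 2 lower and 0 higher, but Phgdh was not among the lower genes there. Its log2 fold change was -0.68 with all libraries, -0.38 without 5-FU replicate 4 and -0.27 without both (unadjusted p = 0.394 in edgeR).

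The 12 genes of each direction with the smallest p among those whose libraries did not overlap were mostly outside these lists. On the higher side they were Zdhhc8, Nab2, Strada, Smurf2, Lrig1, Mmp13, Zc3h12a, Spsb3, Rxra, Rasa2, Srxn1 and Atp9b. Zdhhc8, a palmitoyltransferase, was at 42, 39.4, 38.7, 42.6 and 35.9 CPM in 5-FU and at 53.7, 50.4, 59.5, 48.8 and 56.2 CPM in the combination. Its difference was small and even, 39.7 ± 2.69 against 53.7 ± 4.32 CPM (SD, n = 5), and its log2 fold change was 0.44 ± 0.09 (SE, adjusted p = 0.1793 in edgeR). It ranged from 0.40 to 0.46 when each library was left out in turn. Nab2, a co-repressor of the EGR factors, was at 51, 57.8, 62.3, 36.7 and 62.5 CPM in 5-FU and at 104, 79.2, 102, 68.4 and 121 CPM in the combination. Nab2 (adjusted p = 0.0486) and Arl8a passed the adjusted threshold in edgeR when KCL-HO-1i/5-FU replicate 4 was left out.

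Lrig1, which restrains receptor tyrosine kinases of the EGF family, was at 73.8, 64.5, 78.7, 49.1 and 68.5 CPM in 5-FU and at 107, 95.2, 161, 95.2 and 125 CPM in the combination. Zc3h12a, an RNase that degrades cytokine transcripts, was at 5.62 to 9.57 CPM in 5-FU (median 7.53) and 10.5 to 17.1 CPM in the combination (median 12.4). Rxra, the retinoid X receptor alpha, was at 74.9 to 145 CPM in 5-FU (median 140) and 170 to 237 CPM in the combination (median 178). Each of these 3 kept its direction under all 20 alternatives run. They were chosen as genes whose libraries did not overlap, so leaving out libraries could hardly turn their sign, and this is no independent support. Spsb3, Rasa2 and Atp9b had log2 fold changes of 0.48, 0.65 and 0.32.

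On the lower side they were Ttc27, Ptrh2, Gemin6, Bckdk, Arg1, Mrps10, Blnk, Cep70, Tfb1m, 2810004N23Rik, Ints10 and Znhit3. Bckdk, the kinase that turns off branched-chain amino acid breakdown, was at 139, 184, 156, 221 and 142 CPM in 5-FU and at 102, 111, 85.6, 114 and 90.6 CPM in the combination. Gemin6, part of the complex that loads Sm proteins on spliceosomal RNA, was at 18.9, 20.8, 14.4, 21 and 12.4 CPM in 5-FU and at 11.6, 11.5, 9.42, 9.88 and 9.79 CPM in the combination. With Gemin5 and Smn1 it made 3 lower members of 9 in the SMN complex, 2 without the libraries that stood apart. Blnk, an adaptor of B cell receptor signalling, was at 31.3 to 48.2 CPM in 5-FU (median 42.5) and 11.3 to 30.7 CPM in the combination (median 18). Tfb1m and Mrps10 serve the mitochondrial ribosome, with log2 fold changes of -0.73 ± 0.20 and -0.43 ± 0.12 (SE).

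Strada and Smurf2 lie in the last part of chromosome 11, where many neighbouring genes were higher in some combination tumours. On chromosome 11, 128 of 1139 tested genes (11.2%) were higher, the largest share of the 20 chromosomes compared, and from 100 Mb to its end 99 of 323 were (30.7%), which is 11.7% of all higher genes from 2.36% of the tested ones. Between 110 and 120 Mb, 57 of 115 genes were higher and 0 lower. There the median deviation from the mean of the 5-FU libraries, in log2 CPM, was 0.35, 0.09, -0.01, 0.98 and 0.97 in combination replicates 1 to 5 and within -0.16 to 0.19 in the 5-FU libraries. From 100 to 110 Mb the same values were 0.28, 0.03, 0.1, 0.13 and -0.06, and beyond 120 Mb they were -0.03, 0.09, 0.02, -0.08 and 1, so the libraries that stood high differed along the segment. Smurf2, a ubiquitin ligase of TGF-beta signalling at 106820061 to 106920747, was at 108, 106, 102, 77.1 and 113 CPM in 5-FU and at 315, 116, 118, 262 and 288 CPM in the combination, in replicates 1, 4 and 5 far above the rest. Strada was at 9.51 to 16 CPM in 5-FU (median 13) and at 32.2, 16.8, 19, 26.7 and 21.8 CPM in the combination. With chromosome 11 left out, 717 genes were higher and 663 lower.

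**Figure D4:**
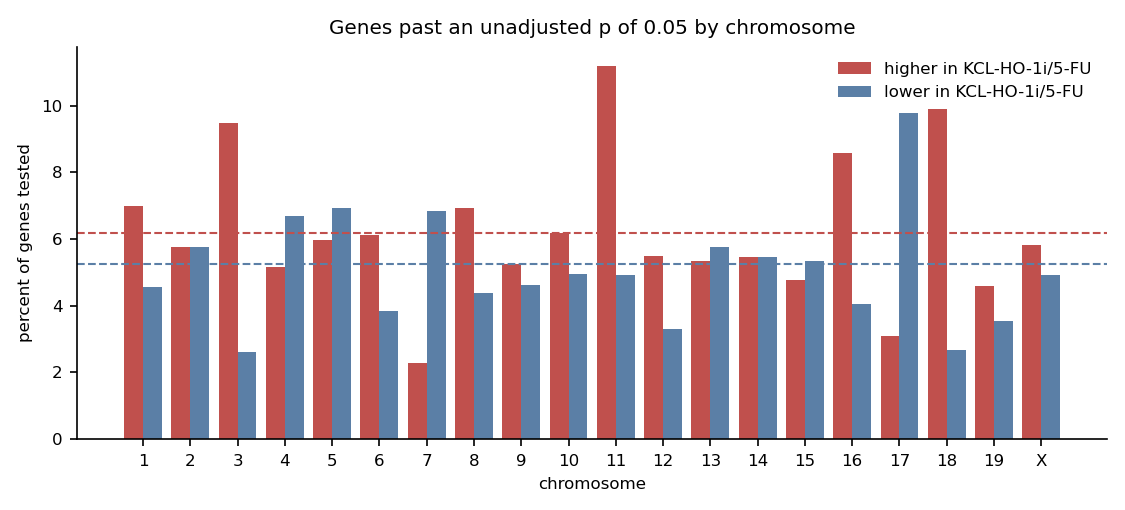
Percent of tested genes on each chromosome that were higher (red bars) or lower (blue bars) in KCL-HO-1i/5-FU at an unadjusted p under 0.05. Dashed lines are the shares over all genes tested, 6.18% higher and 5.26% lower, and chromosome 11 has the tallest bar of higher genes at 11.2%.

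Whether the effect of KCL-HO-1i depended on the chemotherapy was tested as a difference of effects, in contrasts that share no libraries. At an adjusted p of 0.05, edgeR called 0 genes for the effect with 5-FU minus that without chemotherapy (1166 at the unadjusted p, DESeq2 22 adjusted) and 0 for the effect with 5-FU minus that with gemcitabine (926 unadjusted, DESeq2 4 adjusted). With gemcitabine 948 genes (6.94%) were higher and 890 (6.51%) lower, and against vehicle 1005 (7.36%) were higher and 284 (2.08%) lower. The higher genes with 5-FU shared 107 genes with those of gemcitabine, 12.7% of the first list and 11.3% of the other. The lower genes shared 110, 15.3% and 12.4%. Of all genes tested 6.94% were higher and 6.51% lower with gemcitabine. With KCL-HO-1i against vehicle 57 higher genes were shared (6.75% and 5.67%) and 7 lower ones (0.974% and 2.46%). The 6.75% and 0.974% were not above the 7.36% and 2.08% over all genes tested, so this overlap did not exceed the background.

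Genes higher at the unadjusted p in all 3 backgrounds numbered 25 of 13663 tested, and they included Hmox1, Slc40a1, Slc11a1, Spic, Hcls1, Mmp3 and Mmp11. The number that chance would give was not estimated. Hmox1 had log2 fold changes of 3.20, 2.44 and 1.63 with 5-FU, gemcitabine and vehicle, and Slc40a1 of 1.88, 1.32 and 1.31. Slc11a1, a metal transporter of phagosomes, had 1.29, 1.82 and 1.95. The difference of Hmox1 between 5-FU and vehicle was 1.57 ± 0.89 (SE, adjusted p = 0.6355 in edgeR). Genes lower in all 3 were Abcf1, Atm, Ltn1, Morc2a and Rars.

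Other genes and lists are given in the same way, and 0 of their differences between backgrounds passed the adjusted threshold in edgeR. Zdhhc8 had log2 fold changes of 0.44, 0.04 and 0.0002937 with 5-FU, gemcitabine and vehicle, and the difference from vehicle was 0.44 ± 0.12 (SE, adjusted p = 0.42 in edgeR). Cdkn1a had 0.78, 0.29 and -0.97, with a difference from vehicle of 1.75 ± 0.62 (adjusted p = 0.4817 in edgeR) and from gemcitabine of 0.48 ± 0.62 (SE). Hspa1a had 0.93, -0.50 and -0.59. Lyve1 had -1.58, 0.55 and 3.12, and Gzma -2.71, 2.82 and -0.43. The median of the replication list was -0.62 with 5-FU, -0.56 with gemcitabine and -0.08 against vehicle, and that of the p53 targets 0.42, 0.04 and -0.25.

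**Figure D5:**
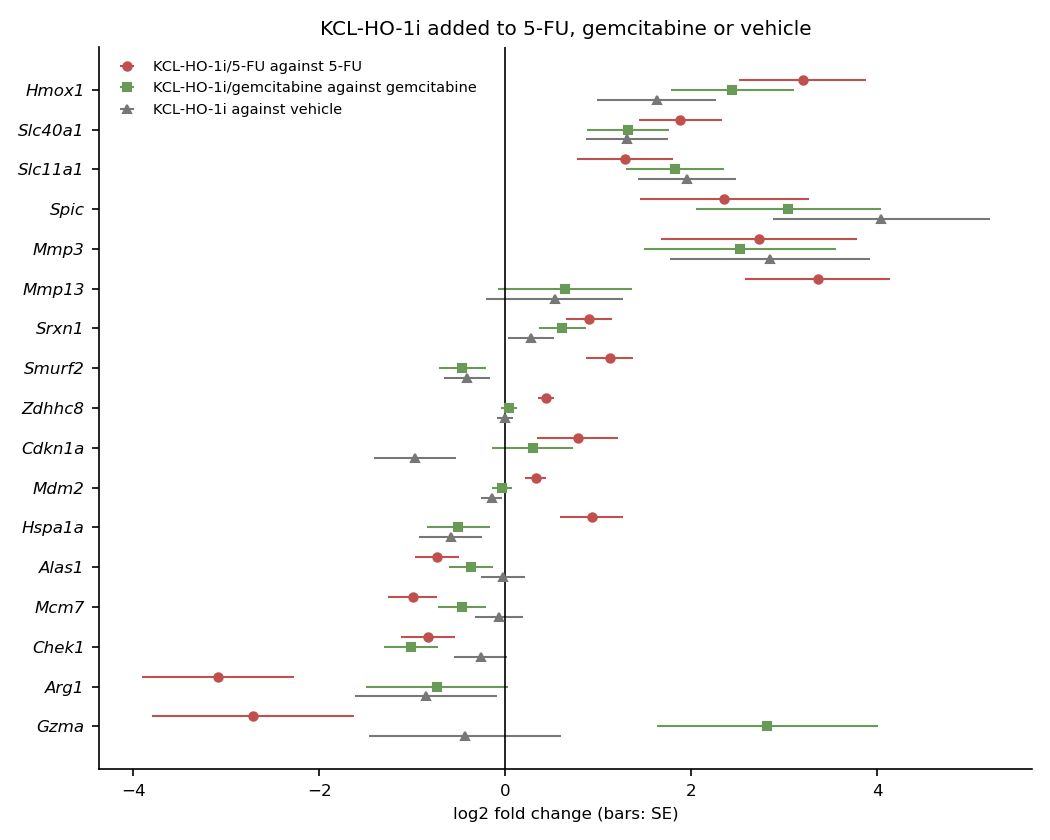
Log2 fold change (points, with SE bars) of 17 named genes when KCL-HO-1i was added to 5-FU (red circles), gemcitabine (green squares) or given against vehicle (grey triangles). Hmox1, Slc40a1, Slc11a1, Spic and Mmp3 lie to the right of 0 in all 3, while Smurf2, Hspa1a and Gzma differ in sign between backgrounds, differences that did not pass an adjusted test.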

How the data were processed

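The authors checked reads with FastQC 0.11.9, aligned them with STAR 2.7.9a to mm10 and quantified them with Salmon 1.9.0, per the submitters' processing notes, and summarised transcripts to genes with tximport before DESeq2. The annotation release is not given in the sources used here. The deposited table, which the methods of the authors name TPM counts, was taken to hold expected counts, estimated reads per gene, since column totals differed between libraries whereas TPM would sum to the same total in each. RNA was extracted with RNeasy columns and libraries were made with a directional NEBNext kit.

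Counts were rounded, and 13663 of 21841 genes passed filterByExpr (minimum count 10). Groups came from sample titles. The 6 groups were fitted together with edgeR 4.0.16 (TMM, quasi-likelihood test, Benjamini-Hochberg adjustment) in R 4.3.3. The alternatives were DESeq2 1.42.0, limma 3.58.1 (voom), RLE scaling, other filters, a replicate block, the mouse code as a covariate and each library left out. CPM used the TMM-scaled library sizes, with which 3 reads, the floor, equal 0.2223 to 0.2642 CPM. Such limits cover counting error only. The method was tested on simulated data.

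Named genes were 10 fixed genes, the 12 higher and 12 lower genes with the smallest p whose libraries did not overlap, and the 2 members of each of 39 lists with the smallest p. Others (among them Tfrc, Fth1, Slc11a1, Spic, Gclm, Gclc, Mmp3, Postn, Tyms, Mcm6 and Cdkn1a) were chosen after their values were seen. The members and lists were chosen with earlier results of these data known. Coordinates and promoters are from RefSeq GRCm38.p6.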

Additional observations from a re-analysis of the deposited data

Results flagged for a closer look

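Of 312 groups of 5 libraries examined over the named genes and list scores, 45 held a library whose gap to its nearest neighbour took more than 0.71 of the range of the group on the log2 scale, the 95% critical value of Dixon for 5 values. Chance flags about 1 in 20 groups, and genes of 1 library are not independent of each other.

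In 5-FU replicate 4 the share of the range taken by the gap was Smurf2 0.725, Rxra 0.939, Ttc27 0.745, Arg1 0.714, Slc39a14 0.789, Slc7a11 0.788, Hcls1 0.815, Csf1r 0.836, F13a1 0.791, Mcam 0.859, Hspa1a 0.759, Fth1 0.722 and Postn 0.836. In 5-FU replicate 5 the share of the range taken by the gap was Cep70 0.791, Cd22 0.791, Rrm1 0.791, Ccnb1 0.846 and Rpa2 0.73. In KCL-HO-1i/5-FU replicate 1 the share of the range taken by the gap was Krt17 0.756. In KCL-HO-1i/5-FU replicate 3 the share of the range taken by the gap was Slc40a1 0.728, Mmp13 0.722, Rasa2 0.811, Srxn1 0.711, Slc48a1 0.792, Cx3cl1 0.719, Cxcl5 0.774, Pdgfrb 0.753, Asns 0.738 and Slc11a1 0.765. In KCL-HO-1i/5-FU replicate 4 the share of the range taken by the gap was Hmox2 0.717 and Ttc27 0.777. Among list scores, 5-FU replicate 4 stood apart for iron handling 0.796, neutrophil and inflammatory myeloid 0.797, matrix proteases and inhibitors 0.724, luminal epithelium 0.733 and integrated and endoplasmic reticulum stress 0.781 (share of the range). Among list scores, 5-FU replicate 5 stood apart for DNA replication 0.806, mitosis 0.865, DNA damage checkpoint and repair 0.894 and ribosome biogenesis 0.834 (share of the range). Among list scores, KCL-HO-1i/5-FU replicate 3 stood apart for NRF2 and BACH1 antioxidant response 0.825, pericyte and smooth muscle 0.782, matrix proteases and inhibitors 0.95 and luminal epithelium 0.752 (share of the range). Among list scores, KCL-HO-1i/5-FU replicate 4 stood apart for DNA damage checkpoint and repair 0.718 (share of the range).

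The largest shares among genes were those of Rxra, at 74.9 CPM in 5-FU replicate 4 against 139 to 145 CPM in the other 4 libraries, and Mcam, at 26.9 against 62 CPM or more in the others. Arg1 in the same library was at 1330 CPM against 68 to 160 CPM. The matrix protease score of KCL-HO-1i/5-FU replicate 3 had the largest share of all. The differences of the KCL-HO-1i effect between backgrounds gave 0 named genes past the adjusted threshold in edgeR.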

How the results depend on the processing

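The count of 0 genes past an adjusted p of 0.05 was 44 in DESeq2 and between 0 and 2 when 1 library was left out, and 0 under the other alternatives run. The count of higher genes at the unadjusted p ran from 561 (without KCL-HO-1i/5-FU replicate 3) to 976 (without KCL-HO-1i/5-FU replicate 4) over the fits without 1 library, and that of lower genes from 338 (without 5-FU replicate 4) to 1184 (without 5-FU replicate 5). Both counts fell outside 1.5 times their value when 5-FU replicate 4 and KCL-HO-1i/5-FU replicate 3 were left out together, at 372 and 229. The differences between backgrounds were 0 in edgeR, and 22 (vehicle) and 4 (gemcitabine) in DESeq2. Hmox1 passed the adjusted threshold in 1 of 20 alternatives, DESeq2 (3.20, adjusted p = 0.000348). The adjusted p over these alternatives ran to 0.856.

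Same-numbered libraries were not paired, with a mean residual correlation of -0.0476 over 5 pairs (lowest -0.191, highest 0.0574). With a replicate block, 660 genes were higher and 648 lower, and 0 passed the adjusted threshold.

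Of the log2 fold changes of 117 named genes, 51 values over 30 genes turned in sign, 17 passed the adjusted threshold where the reported value did not, and 2237 kept their direction and side of the threshold. The cause was not tested. Only mouse code 74 occurs in both groups, and its single 5-FU library is replicate 5. Once mouse code entered the fit the turned values were Alas2 0.10, Ccnb1 0.42, Ccnb2 0.00911, Cpox 0.0588, Csn1s1 0.47, Cxcl5 -0.00327, Erbb2 -0.00912, Fdft1 0.00534, H2-DMb1 -0.28, Hba-a2 -0.47, Idi1 0.21, Jchain -0.15, Lyve1 0.034, Oas2 2.05, Uqcrc2 0.13 and Uqcrfs1 0.23. In limma-voom with quality weights they were F13a1 -0.0635, Hba-a2 -1.64, Hmox2 0.0332, Ifit2 -0.57, Jchain -0.15, Mrc1 -0.23, Pdpn -0.00179, Pparg -0.19 and Xcr1 -0.26. Without 5-FU replicate 4 and KCL-HO-1i/5-FU replicate 3 together, an alternative chosen after seeing the data like that without chromosome 11 genes, they were Cd22 -0.12, Cd276 -0.0012, Cxcl12 -0.24, F13a1 -0.37, Fap -0.34, Fcgr1 -0.0537, Hba-a2 -2.72, Icam1 -0.17, Ifit2 -0.71, Mrc1 -0.18, Pdpn -0.33, Postn -0.15, Pparg -0.55 and Xcr1 -0.27. With 1 library left out the ranges of the genes that turned were Cd22 -0.11 to 0.80, Cd276 -0.00473 to 0.32, Cxcl12 -0.0878 to 1.11, F13a1 -0.10 to 1.93, Fap -0.15 to 2.76, Hba-a2 -2.41 to 1.33, Hmox2 -0.0737 to 0.0338, Ifit2 -0.46 to 0.81, Pdpn -0.11 to 1.48, Pparg -0.37 to 1.37 and Xcr1 -0.46 to 1.40. List medians moved by more than the spread between libraries in 14 of 779 values, and 12 of the 14, over 39 lists, were those with mouse code in the fit. That spread was the larger SD of the list score within the groups, and it includes the libraries that stood apart. A median that turns in sign, such as that of the fibroblast list, can therefore count as not moved, and the count is no measure of stability. In simulated data with 13605 genes, the fit of this comparison recovered 52% of changes of 1 and 81% of changes of 2 on the log2 scale at the adjusted threshold.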

Other observations

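Epidermis and basal keratin genes held 2 higher members of 10, Krt14 and Krt17, with a list median of -0.23 (2 higher and a median of 0.31 without 5-FU replicate 4 and KCL-HO-1i/5-FU replicate 3). Krt17, a keratin of basal cells, was at 30.2, 16.1, 24.1, 17.9 and 6.15 CPM in 5-FU and at 315, 13.7, 15.1, 29.5 and 25.6 CPM in KCL-HO-1i/5-FU, and Krt14 at 893 CPM was also highest in replicate 1 of the combination. Without that library the log2 fold changes of Krt14 and Krt17 were 0.57 and 0.15 (1.75 and 2.08 with it). Erbb2, the HER2 receptor, was the higher member of 17 luminal epithelium genes, with 241 CPM in the same library and a log2 fold change of 0.51 with it and 0.16 without it. On chromosome 11, Krt14 and Krt17 start at 100203162 and 100256215, within the segment from 100 Mb described above, and Erbb2 starts at 98412484, before it. The part of that segment in the values of these genes was not tested. Milk protein genes held 1 lower member of 9, Csn1s1, median -1.07. Csn1s1 ranged from 16.9 to 1530 CPM in 5-FU and from 14.7 to 223 CPM in the combination. Without those libraries 1 milk protein gene was lower, with a median of -1.22, and 1 luminal gene was higher and 1 lower, with a median of 0.05.

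Ribosome biogenesis genes held 3 lower members of 17 (Dkc1, Fbl and Npm1), median -0.21, and cholesterol synthesis genes 1 of 16 (Idi1), median -0.21. Without the same libraries 0 ribosome biogenesis genes passed (median -0.13) and 1 cholesterol gene was lower (median -0.12). In 9 lists no member passed in either direction. Their medians were 0.72 for neutrophil and inflammatory myeloid genes (9 tested), 0.21 for immune checkpoint genes (7), 0.58 for B and plasma cell genes (2), -0.03 for MHC class I presentation (12), 0.37 for MHC class II and dendritic cell genes (11), -1.05 for lymphatic endothelium (6), 0.15 for adipocyte genes (13), -2.25 for skeletal muscle genes (12) and 0.14 for hypoxia and glycolysis genes (15). Without those libraries 1 MHC class I gene and 1 lymphatic gene were lower, and 0 passed in the other 7 lists. In 3 further lists no member passed either, with medians of 0.18 for mitochondrially encoded (13) and -0.19 for nuclear respiratory chain genes (17) and -0.17 for haemoglobin and red cell genes (5), and 0 passed there without those libraries. The summed level of the skeletal muscle list ran from 1.22 to 274 CPM in 5-FU and from 1.96 to 64.6 CPM in the combination.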
